A study of Mus musculus with 2 samples.

Results

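The 9 genes described here encode core parts of the Sonic hedgehog signalling pathway: the ligand (Shh), the receptors and co-receptor (Ptch1, Smo, Boc), the inhibitors (Hhip, Sufu) and the transcription factors (Gli1, Gli2, Gli3). They were named by gene symbol, and all 9 were found among 21938 protein-coding genes of GENCODE release M21 on the mouse assembly mm10. Each was read over its domain, the gene body plus 10 kb on each side, and at its promoter, the 500 bp on either side of any of its annotated transcription start sites (TSSs). DNase-seq cuts nuclei with the nuclease DNase I and sequences the released ends, so that peaks mark open chromatin. The libraries came from midbrain of newborn B6NCrl mice (age 0 days), with tissue of males and females pooled. There was 1 group of 2 biological replicates and no treatment, genotype or control group. The replicates have separate biosamples that trace to the same pooled donor entry, and apart from the replicate numbers there is no statement that they were different animals.

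In cells that receive no hedgehog ligand, the receptor Ptch1 holds the membrane protein Smo inactive, and Sufu restrains the zinc finger factors Gli2 and Gli3, which are partly turned into repressors. Ligand binding to Ptch1, helped by co-receptors such as Boc and opposed by the decoy Hhip, frees Smo and leads to Gli activators, whose best known targets include Gli1, Ptch1 and Hhip themselves. In the embryonic midbrain Shh from the floor plate patterns the ventral cell types, dopaminergic neurons among them. The tissue holds many cell types, so that a weak peak can come from few cells or from weak opening in many, and these cannot be told apart here.

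Replicate 1 had 228203 usable peaks and replicate 2 had 122593, each 150 bp wide and each with a whole-number signal given by the authors (median 44 and 18). The sources used here do not define this signal, and it was not scaled between libraries, so it is read only within a library. Peaks that overlapped or touched were merged into regions, and a region with a peak of each library is called shared. There were 74833 shared regions in the genome, of which 52518 had their midpoint over 500 bp from every annotated TSS and are called distal. Shared promoter peaks were present at 6 of 6 midbrain and neuronal markers, Otx2 (signal 73 in replicate 1 and 27 in replicate 2), En1 (108 and 36), En2, Rbfox3, Myt1l and Tubb3, and at 0 of 6 markers of other organs.

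The open regions on which the results below turn are shown first, on the strand of the gene and from the RefSeq copy of the assembly. In the first, which was the strongest distal region of any member, capitals mark an exact match to the consensus bound by Gli factors, GACCACCCA, searched on both strands. In the other 5, capitals mark an exact match to the 14-base core consensus of CTCF, a zinc finger protein found at chromatin loop anchors. That motif was searched after the sequences had been seen. A match is a description of the letters and not a mapped binding site.
Ptch1 5′ region, chr13:63566296-63566445 (-): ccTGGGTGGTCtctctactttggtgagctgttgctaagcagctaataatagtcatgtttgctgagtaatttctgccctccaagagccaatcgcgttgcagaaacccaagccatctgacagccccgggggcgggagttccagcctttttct
Gli1 5′ flank, chr10:127342396-127342565 (-): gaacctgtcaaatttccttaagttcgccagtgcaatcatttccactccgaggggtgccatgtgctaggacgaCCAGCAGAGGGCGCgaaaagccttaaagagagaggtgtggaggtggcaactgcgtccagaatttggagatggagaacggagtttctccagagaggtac
Shh 3′ flank, chr5:28451316-28451485 (-): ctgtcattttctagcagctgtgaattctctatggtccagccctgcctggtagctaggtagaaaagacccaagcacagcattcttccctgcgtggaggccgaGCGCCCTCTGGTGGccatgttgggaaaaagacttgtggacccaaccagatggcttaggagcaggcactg
Boc 3′ flank, chr16:44484176-44484385 (-): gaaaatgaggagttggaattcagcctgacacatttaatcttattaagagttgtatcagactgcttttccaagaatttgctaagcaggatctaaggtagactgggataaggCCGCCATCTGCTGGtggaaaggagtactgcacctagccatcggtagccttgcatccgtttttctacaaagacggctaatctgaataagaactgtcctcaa
Sufu intron 3, chr19:46444336-46444485 (+): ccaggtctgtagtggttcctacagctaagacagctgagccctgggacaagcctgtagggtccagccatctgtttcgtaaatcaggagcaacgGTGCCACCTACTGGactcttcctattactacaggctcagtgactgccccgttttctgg
Gli3 intron 12, chr13:15715216-15715365 (+): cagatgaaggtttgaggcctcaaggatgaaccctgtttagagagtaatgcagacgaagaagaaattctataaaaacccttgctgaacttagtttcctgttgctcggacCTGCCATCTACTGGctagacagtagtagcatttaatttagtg

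Together the 9 domains spanned 1038 kb and held 352 regions: 77 were shared, 139 were open in replicate 1 only and 136 in replicate 2 only. Of the 77 shared regions 56 were distal, 45 of them in introns, 1 in an exon and 9 in the flanks, and the last, at Ptch1, lay within the gene body but upstream of the transcript used for the parts. A total of 17 lay at a member's own promoter and 7 only at a TSS of another gene. Of the 17, 3 regions, at Smo, Gli1 and Gli2, reached a promoter window with an edge while their midpoint lay outside it. They were counted both as promoter and as distal. A shared promoter region was present at 8 of the 9 members, against 61.0% of all protein-coding genes. Each library alone had a promoter peak at 9 of 9, against 68.9% of genes in replicate 1 and 62.6% in replicate 2. The exception was Boc, whose peaks in the libraries lay side by side without overlap. The map of peaks by library shows these regions along each gene.

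**Figure D1:**
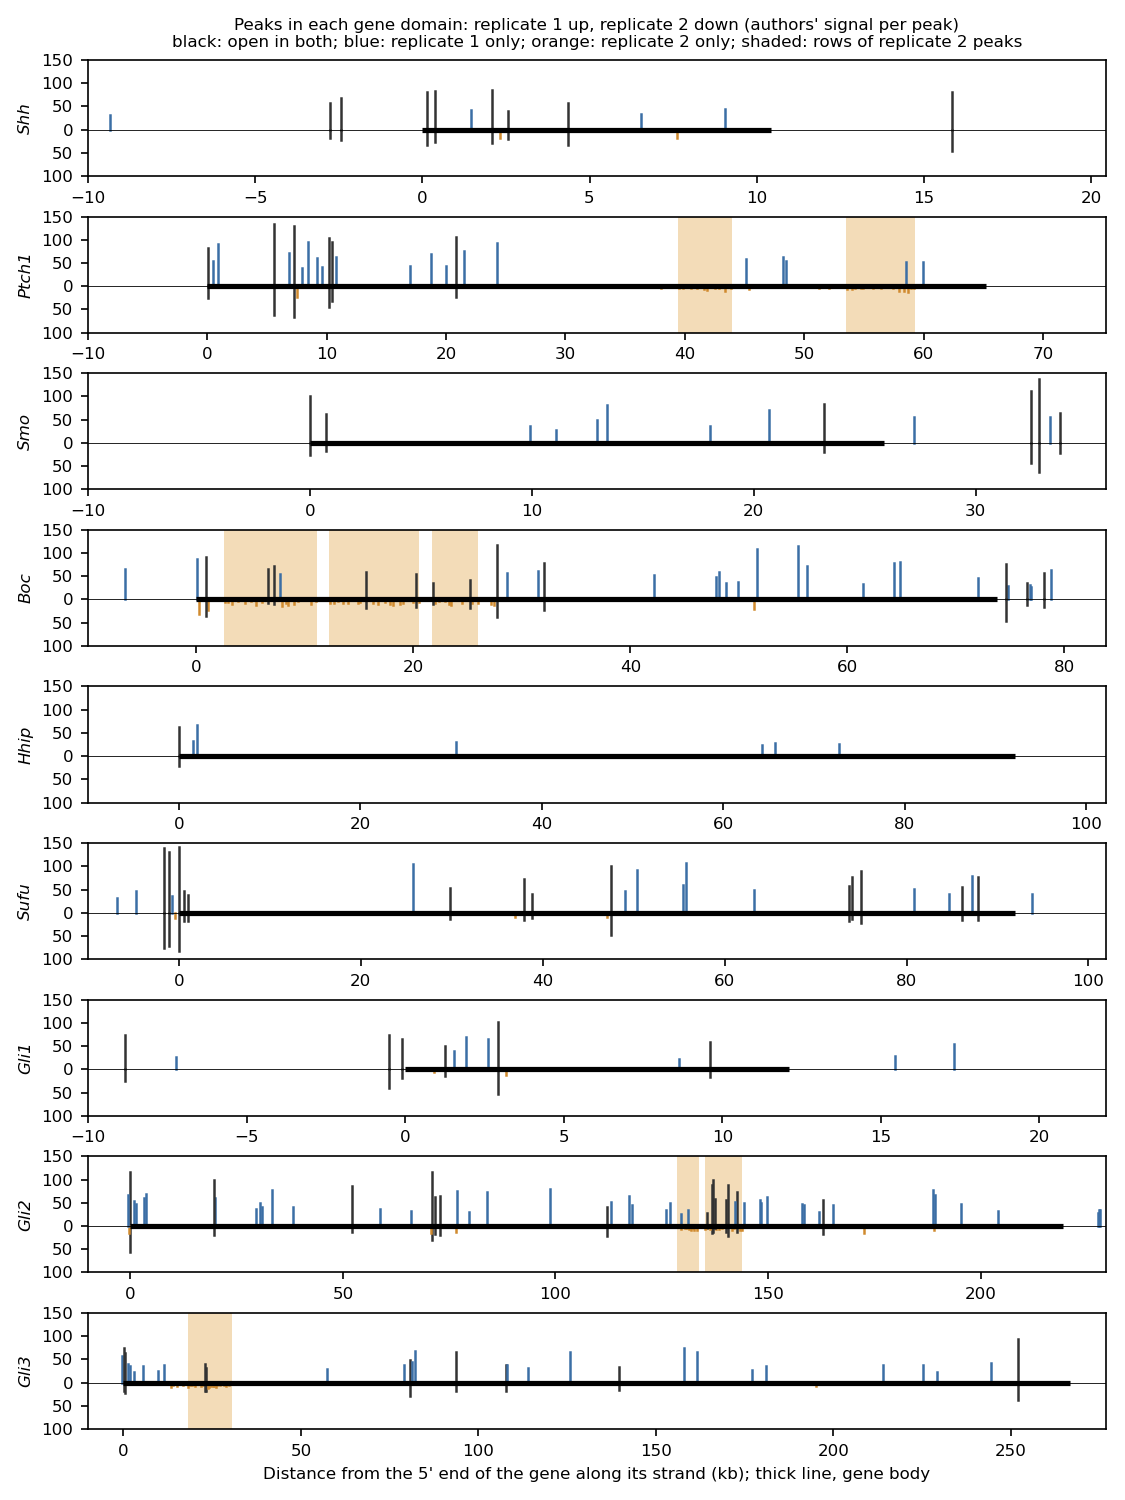
Peaks along the 9 gene domains, by distance from the 5′ end in kb, with the authors' signal of replicate 1 drawn upward and of replicate 2 downward. Black lines are shared regions, blue and orange lines are regions of replicate 1 or replicate 2 only, and shaded stretches in Ptch1, Boc, Gli2 and Gli3 are rows of closely spaced replicate 2 peaks of low signal.

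Shh (ENSMUSG00000002633, chr5:28456815-28467256, minus strand) encodes the secreted ligand and was the most densely open member over its domain with flanks of 10 kb. Its domain of 30.4 kb held 8 shared regions, 4 of replicate 1 only and 2 of replicate 2 only. Of the shared regions 6 were distal, or 19.7 per 100 kb, which exceeded 99.3% of protein-coding genes. A pair of promoter regions lay within exon 1, with signals of 80 in replicate 1 and 34 in replicate 2 at 135 bp from the TSS, and 82 and 26 at 385 bp. The TSSs of the noncoding genes 9530036O11Rik and Gm26894 lie in the same window, so these regions cannot be assigned to Shh alone. Intron 1 held 3 regions, with signals of 85 and 30, 41 and 21, and 58 and 34 at 2.10, 2.56 and 4.34 kb from the 5′ end. A further pair lay 2.42 and 2.75 kb upstream (67 and 22, 57 and 18). The strongest distal region by replicate 2, at 81 and 47, lay beyond the 3′ end and is the Shh sequence printed above.

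Beyond the domain, the gap between Shh and the next protein-coding gene upstream, Rnf32, ran for 729 kb. This gap, which is known for long-range Shh enhancers, held 8 distal shared regions, or 1.10 per 100 kb. They included the pair 2.42 and 2.75 kb upstream, and the others lay 54.1 to 570 kb from Shh. The strongest stood 393 kb upstream with signals of 91 and 46, and the weakest in replicate 2 stood 145 kb upstream with 82 and 8. The open regions were dense about the Shh gene and sparse over the gap.

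Ptch1 (ENSMUSG00000021466, chr13:63508328-63573598, minus strand), the ligand's receptor, had 10 annotated TSSs, of which 3 had a shared region. The TSSs of Ptch1-205 and Ptch1-204 at the 5′ end shared 1 region of 83 and 26. That of Ptch1-206 had a region of 103 and 45 in intron 2. The 4 other protein-coding TSSs, of Ptch1-207, Ptch1-202, Ptch1-203 and Ptch1-201, had peaks of replicate 1 in their windows (40 to 95) but no shared region. At Ptch1-201, replicate 2 had a separate peak of 24. The strongest distal region of any member by either library, 129 and 67, began 561 bp upstream of that TSS and so just outside the window, inside intron 1 of Ptch1-205. Its signal exceeded 98.1% of replicate 1 peaks and 97.0% of replicate 2 peaks. Another strong region, 134 and 62, lay 73 bp from the TSS of the noncoding gene A930032L01Rik inside Ptch1. The domain of 85.3 kb held 6 shared regions in all, 18 of replicate 1 only and 30 of replicate 2 only. Its 3 distal shared regions came to 3.52 per 100 kb, above 63.4% of genes.

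Smo (ENSMUSG00000001761, chr6:29735503-29761365, plus strand) encodes the membrane protein that carries the signal onward. Its promoter had regions of 101 and 26 at the 5′ end and 63 and 17 in exon 1. All 6 replicate 2 peaks in its domain of 45.9 kb overlapped replicate 1 peaks, and 8 further regions were of replicate 1 only. A single shared region lay in the introns (84 and 19, intron 9). The strongest regions of the domain, 137 and 62 and 111 and 44, belonged to the promoter of the neighbouring gene Ahcyl2, with a region of 64 and 22 beside it. With 3 distal regions, or 6.54 per 100 kb, Smo stood above 83.4% of genes. Only the one in intron 9 lay away from promoters. The exon 1 region counted as distal because its midpoint was 537 bp from the nearest TSS, and the region beside Ahcyl2 was 783 bp from a TSS.

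Boc (ENSMUSG00000022687, chr16:44485049-44558897, minus strand), a cell surface co-receptor of the ligand, was the member without a shared promoter peak. Replicate 1 had a peak of 87 at chr16:44558776-44558925, over the TSS, and replicate 2 a peak of 31 at chr16:44558616-44558765. The hotspots there, wider intervals called by the authors with a q value each, did overlap: that of replicate 1 was in the strongest class (−log10 q of 100) and that of replicate 2 was at 1.98. The nearest shared region, 91 and 36, was 812 bp from the TSS and lay at the TSS of the microRNA gene Mir3081. Boc was nonetheless rich in distal regions, with 11 in 93.8 kb, or 11.7 per 100 kb, above 95.4% of genes. Of its 12 shared regions, 6 lay in rows of closely spaced replicate 2 peaks described below. Among those outside rows, the strongest by replicate 1 was in intron 1 (117 and 37). By replicate 2 the strongest was the region 3′ of the gene whose sequence is printed above (77 and 46). Its 21 regions of replicate 1 only reached 115, in intron 4.

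Hhip (ENSMUSG00000064325, chr8:79965851-80058006, minus strand), which binds the ligand as a membrane-anchored decoy, was the least open member. Its domain of 112 kb held 1 shared region, the promoter, with signals of 63 and 21. This was also the only replicate 2 peak in the domain. No distal region was shared, as in the 36.6% of protein-coding genes that had none. Replicate 1 alone had 6 further regions, all in introns, of 68 and 32 in intron 1 and 23 to 31 deeper in the gene. The 187 kb downstream to the next protein-coding gene, Anapc10, held 0 distal shared regions.

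Sufu (ENSMUSG00000025231, chr19:46396896-46488804, plus strand), the cytoplasmic protein that restrains Gli factors, had the strongest promoter of the 9, at 142 and 82. These values exceeded 99.8% of replicate 1 peaks and 99.7% of replicate 2 peaks. The promoter region lay within the windows of 4 annotated protein-coding TSSs. The divergent neighbour Actr1a had promoter regions of 139 and 75 and 131 and 72 in the same domain. Of 14 shared regions 9 were distal, all in introns, or 8.04 per 100 kb, above 88.5% of genes. The strongest of these, in intron 3, had 101 and 48, and 3 in intron 8 had 57 to 89 in replicate 1 and 13 to 23 in replicate 2. Of 17 replicate 2 peaks 14 (82.4%) overlapped a replicate 1 peak.

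Gli1 (ENSMUSG00000025407, chr10:127329882-127341974, minus strand), the Gli factor that acts as an activator, was small and densely open. Its domain of 32.1 kb held 6 shared regions, 4 of them distal, or 12.5 per 100 kb, above 96.1% of genes. The TSS had a region of 66 and 18, and the stronger region of its promoter, 75 and 40, had its midpoint 507 bp upstream. The strongest region of the gene lay in intron 2, at 101 and 52, 2.94 kb from the 5′ end, and another in intron 2 had 50 and 14. A region of 60 and 16 in intron 12 lay at the TSS of the noncoding gene Gm47200, and one of 74 and 24 lay 8.82 kb upstream.

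Gli2 (ENSMUSG00000048402, chr1:118834132-119053619, minus strand), the main activator of the pathway in the ventral neural tube, had the largest number of regions, 81, of which 15 were shared. Its promoter had 116 and 56. A region of 116 and 31 lay at the TSS of the noncoding transcript Gli2-202 in intron 2. All 13 distal regions were intronic, and 7 of them lay in a row of replicate 2 peaks 135 to 144 kb from the 5′ end. Over a domain of 239 kb the distal regions came to 5.43 per 100 kb, above 78.9% of genes. The 40 regions of replicate 1 only had signals of 26 to 79.

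Gli3 (ENSMUSG00000021318, chr13:15463235-15730026, plus strand), the Gli factor that acts mainly as a repressor, had the longest domain, 287 kb. Its promoter regions had 74 and 19 and 63 and 22, in a window shared with the gene Gm6556. All 7 distal regions were in introns, 2 of them in a row of replicate 2 peaks. Together the 7 came to 2.44 per 100 kb, above 51.7% of genes. The strongest lay in intron 12, 252 kb from the 5′ end, at 93 and 37, and its sequence is printed above. The others had 32 to 66 in replicate 1 and 16 to 28 in replicate 2. In the 789 kb upstream to Psma2 there were 4 distal shared regions (0.507 per 100 kb), and in the 282 kb downstream to Inhba there were 6 (2.13 per 100 kb).

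**Figure D2:**
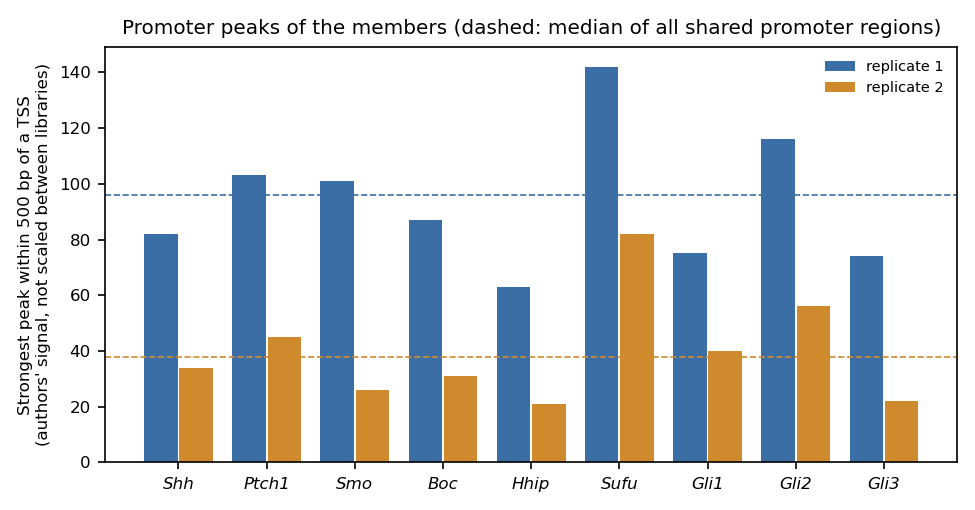
Strongest peak of each library within 500 bp of a TSS of each member, in the authors' signal, which is not scaled between libraries. Sufu was highest in both libraries and Hhip lowest; dashed lines are the medians of all shared promoter regions (96 in replicate 1 and 38 in replicate 2). For Shh, Boc and Gli3 the bars of the libraries come from different regions of the same promoter.

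Shared promoter regions over the genome had medians of 96 in replicate 1 and 38 in replicate 2. The strongest promoter peaks of Sufu, Gli2 and Ptch1 stood above both medians and those of Shh, Boc, Hhip and Gli3 below both. Smo was above the median in replicate 1 only and Gli1 in replicate 2 only. These are the strongest peaks over all TSSs of a gene, taken per library, whereas the medians are over single shared regions. The Ptch1 values, 103 and 45, came from the region at Ptch1-206, and its 5′ end region, 83 and 26, was below both medians. The Gli1 values came from the region with its midpoint 507 bp upstream, and its TSS region, 66 and 18, was below both. By hotspots, 9 of 9 members were open at a promoter in both libraries, against 62.1% of genes. In replicate 1 all 9 had a hotspot of the strongest class there. In replicate 2 this held for 5, Shh, Ptch1, Sufu, Gli1 and Gli2, and for Ptch1 that hotspot lay upstream of Ptch1-201. The other values of −log10 q in replicate 2 were 3.92 at Smo, 1.98 at Boc, 1.83 at Hhip and at most 1.75 at Gli3. Hhip and Gli3 were thus weakest by both measures in the smaller library. The strongest hotspot class was common: its value of 100 was also the upper quartile of all hotspots in each library. The share of all genes with a hotspot of that class at a promoter was not counted.

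CpG-rich promoters are widely open in many tissues. CpG richness was taken as the observed/expected ratio of CpG in the 500 bp on either side of the 5′ end. The members fell in deciles 5 to 10 of this ratio among protein-coding genes. Shh and Gli1 were in decile 5, where 69.3% of genes had a shared promoter peak. Ptch1, Smo, Boc and Hhip were in decile 6 (84.5%), Gli2 in decile 7 (90.4%), Sufu in decile 8 (93.3%) and Gli3 in decile 10 (96.5%). Beside these shares a count of 8 of 9 does not set the members apart from genes with like promoters. Gli3 had the highest CpG ratio of the members and one of the weakest promoter signals.

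The members ranged widely in distal openness. By distal shared regions per 100 kb, 6 of 9 lay above the upper quartile of protein-coding genes (25.0% of genes, by construction): Shh, Gli1, Boc, Sufu, Smo and Gli2, in falling order. With the rows of replicate 2 peaks described below left out, Gli2 went from 5.43 to 2.51 per 100 kb and below the quartile, and Boc from 11.7 to 5.33. Gli2 was also below it with a reciprocal overlap of 50% (3.34), and Ptch1 was above it with hotspots (5.86). With 50 kb on each side of the gene, Shh came to 5.43 and Gli1 to 5.35, and Sufu was the densest, with 23 distal regions. Ptch1 and Gli3 lay between the median of 2.28 and the upper quartile of 4.69, and Hhip had none. Gli3 fell from 2.44 to 1.74, under that median, with the rows left out, and likewise with a reciprocal overlap of 50%. At least 1 distal shared region was present at 8 of 9 members, against 63.4% of genes. Genes differ in domain length and in the neighbours their domain takes in, which was not corrected for. The distal regions of the members were of ordinary strength, with medians of 65 and 18 against 67 and 22 over the genome.

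**Figure D3:**
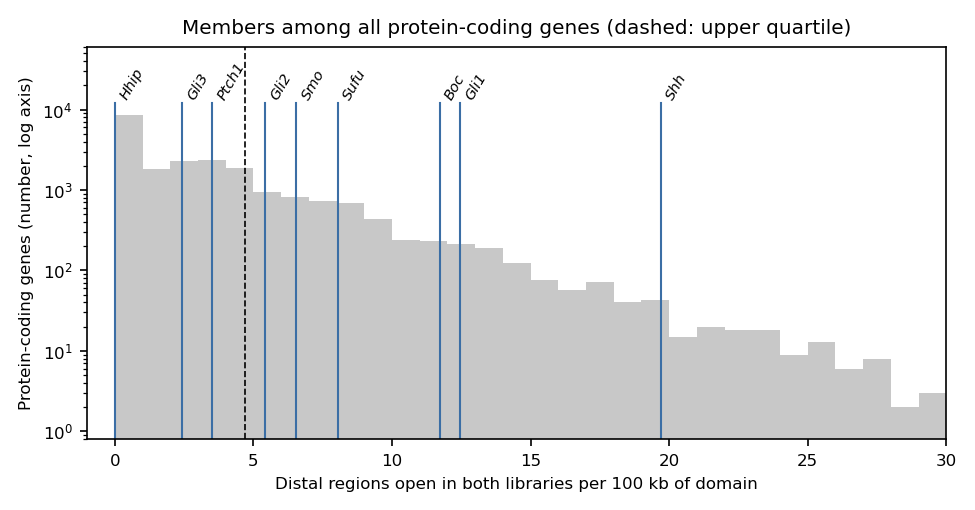
Number of protein-coding genes (log axis) by distal shared regions per 100 kb of domain, with each member marked by a line and the upper quartile dashed. Shh stands far to the right, at 19.7, and Hhip at 0; values above 30 are not drawn.

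The libraries were also compared for how far they located the same sites at these genes. Of 233 replicate 2 peaks in the 9 domains, 80 overlapped a replicate 1 peak, or 34.3% (95% Wilson interval 28.5 to 40.6, counting error only), against 64.6% of all replicate 2 peaks. The share ran from 18.9% at Ptch1, 9 of 45 peaks at Gli3, 21.2% at Boc and 34.9% at Gli2 to 75.0% at Gli1, 80.0% at Shh and 82.4% at Sufu, and all peaks overlapped at Smo (6 of 6) and Hhip (1 of 1). In the other direction 77 of 219 replicate 1 peaks overlapped, or 35.2%, near the 33.5% of the genome. No test of the difference was made, because peaks within a gene are not independent.

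The 4 low values came with rows of closely spaced replicate 2 peaks. A row was defined, after the values had been seen, as at least 10 peaks with gaps of at most 1000 bp. There were 3 rows in intron 1 of Boc (10, 23 and 19 peaks), 2 in Ptch1 (14 and 11), 2 in Gli2 (18 and 11) and 1 in Gli3 (30). Rows of replicate 2 touched the domains of 4 of 9 members, against 1.30% of protein-coding genes, and 3.98% of the 3898 genes whose domain is at least as long as that of Ptch1. The count depends on the definition: it was 1 (Gli3) with gaps of at most 500 bp, against 0.428% of genes, and 2 (Boc and Gli3) with at least 20 peaks, against 0.251%. The peaks in them were weak, with a median signal of 6 (range 2 to 21) against 19 (2 to 82) outside rows. Inside rows 15 of 136 peaks overlapped replicate 1 (11.0%, against 27.9% over the genome). Outside rows 65 of 97 did (67.0%, interval 57.2 to 75.6), close to the 66.4% of the genome. What gave rise to the rows was not tested.

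**Figure D4:**
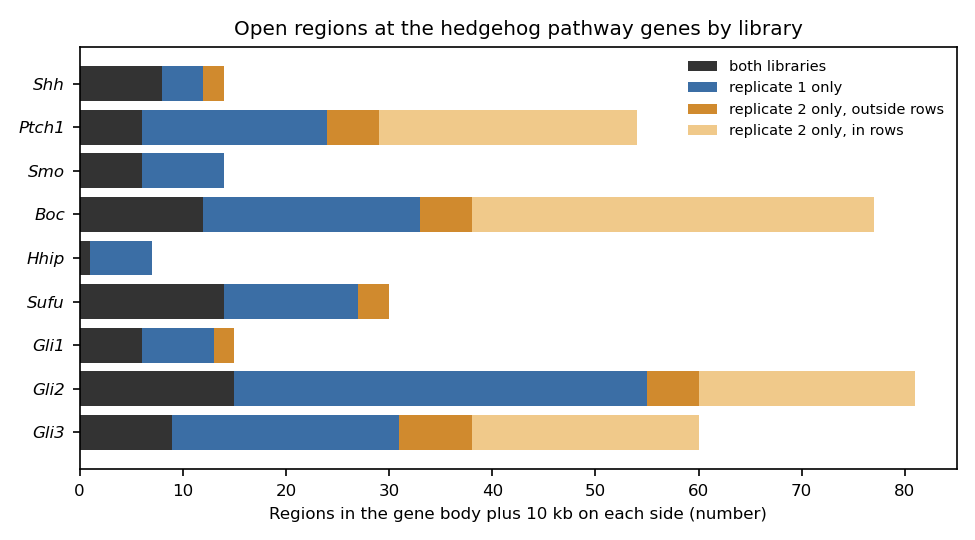
Number of regions in each domain that were shared, of replicate 1 only, or of replicate 2 only, the last split by whether they lay in a row of closely spaced peaks. Most regions of replicate 2 only at Ptch1, Boc, Gli2 and Gli3 lay in rows (25 of 30, 39 of 44, 21 of 26 and 22 of 29), and Shh, Smo, Hhip, Sufu and Gli1 had none in rows.

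Such rows were a property of replicate 2 elsewhere too, with 365 in the genome that held 4.62% of its peaks and had a median of the rows' median signals of 9. Those of the members were at 4 to 8. Replicate 2 regions in the members' rows that replicate 1 lacked had a median GC content of 45.3%, against 53.0% in the members' shared distal regions. Replicate 1 had 181 rows, which touched 0.975% of genes. One was at a member, Ptch1, where 10 peaks with a median signal of 66.5 covered the TSSs of Ptch1-206 to Ptch1-201 and the region upstream of them. With replicate 2 rows left out, the members kept 62 shared and 41 distal regions.

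**Figure D5:**
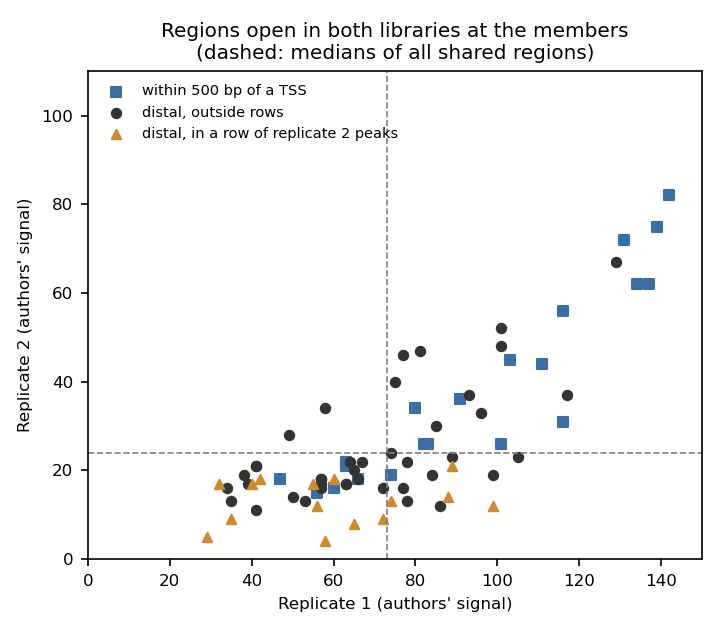
Authors' signal of the 77 shared regions at the members in replicate 1 (x axis) and replicate 2 (y axis), by class. Promoter regions and a few distal ones make up the upper right, and triangles, the distal regions in rows of replicate 2 peaks, lie at or below 21 in replicate 2; dashed lines are the medians of all shared regions (73 and 24).

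The Gli consensus GACCACCCA was rare in open regions. Within 150 bp about the midpoint it was present in 1 of 77 shared regions of the members (1.30%, interval 0.23 to 7.0), against 0.103% of all shared regions and 0.128% of windows of the same length 1000 bp away. The region was the strong one upstream of Ptch1-201, with the match at chr13:63566435-63566443. Over whole regions, 3 of 77 held a match, against 0.144% of all: a further one stood at the 5′ end of Ptch1 (chr13:63573465-63573473), and one in a Boc region of 65 and 8 inside a row (chr16:44552156-44552164). For the exact match, the shares of all shared regions lay below the members' intervals, which began at 0.23% and, for whole regions, at 1.33%. With 1 mismatch allowed, 5 of 77 held one in the 150 bp window (6.49%, interval 2.81 to 14.3). The 2.97% of all shared regions lies inside that interval. Over whole regions 8 of 77 held one with 1 mismatch (10.4%, interval 5.36 to 19.2), and the 3.82% of all shared regions lies below it. These intervals hold counting error only. In 150 bp windows 1000 bp from the members' shared regions, the share with 1 mismatch was 3.90%. About the midpoint it was 5.76% in member regions of replicate 1 only and 3.68% in those of replicate 2 only. So 2 of the 3 exact matches lay at Ptch1, a known Gli target, but a count of 3 gives wide intervals, and the matches say nothing about whether Gli factors were bound.

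The CTCF core consensus was present in 5 of the 56 distal member regions (8.93%, interval 3.87 to 19.3), near the 7.34% of distal shared regions in the genome. With 1 mismatch allowed it was present in 8 of 56 (14.3%), against 22.7%. The 5 regions were the 3′ flanks of Shh (81 and 47) and Boc (77 and 46), intron 3 of Sufu (101 and 48), the 5′ flank of Gli1 (75 and 40) and intron 12 of Gli3 (93 and 37). That at Gli1 is the region also counted at its promoter, with its midpoint 507 bp from the TSS. Strong distal regions without the match included those at Ptch1 (129 and 67) and in intron 2 of Gli1 (101 and 52).

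Among 40 other genes of the pathway, chosen with earlier results of these data known, 31 (77.5%) had a shared promoter peak, against 61.0% of protein-coding genes. By distal regions 16 lay above the upper quartile, against 25.0% of genes. All 8 genes of Gli processing and all 4 other receptors and co-receptors had a shared promoter peak. So did 9 of 11 genes of the cilium and signal transduction, 4 of 7 of ligand production and release, and 6 of 10 neural targets. The Gli processing genes were in CpG deciles 7 to 10, where 90.4% to 96.5% of genes had such a peak. The counts by role are small and were not matched for CpG. The 9 genes without a shared promoter peak were the ligands Ihh and Dhh, Scube2, Evc, Gpr37l1, Foxa2, Foxa1, Nkx2-9 and Nkx6-2. Of these, Dhh, Nkx2-9 and the floor plate factors Foxa2 and Foxa1 had no promoter peak in replicate 1 or replicate 2. Ihh (27), Scube2 (59), Evc (71), Gpr37l1 (76) and Nkx6-2 (53) had one in replicate 1 only. Among the richest by number of shared regions in each role were Hhat, which acylates the ligand, with 12, and Scube1 with 10; the endocytic receptor Lrp2 with 6; Tulp3, a ciliary trafficking factor, with 7 and the ciliary GTPase Arl13b with 5; the ubiquitin ligase subunit Btrc with 11 and the kinase Gsk3b with 10; and cyclin D1 (Ccnd1) with 8 and Mycn with 6. Arl13b, Gsk3b and Mycn were tied with other genes and taken by symbol. These counts were not scaled to domain length, which ran from 25.8 kb at Mycn to 295 kb at Hhat. Ccnd1 was denser in distal regions than Shh, at 23.3 per 100 kb. Rows of replicate 2 peaks were also present in the domains of the targets Nkx2-2 and Nkx6-1.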

How the data were processed

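Per the labels, DNase-seq was run on midbrain of newborn mice, 1 group of 2 biological replicates. For each replicate the authors deposited peaks and hotspots on mm10, made from the filtered alignment of that replicate without pooling. The sources used here name no aligner, caller or setting. The deposited peak lists give a signal for each peak, and the deposited hotspot lists a −log10 of a q value. Read depth is unknown, so the number of peaks stands in for yield and no value carries a depth-based error. After peaks off chromosomes 1 to 19, X and Y and repeats of a position were left out, overlapping or touching peaks of both libraries were merged, with overlap of at least 1 bp. Gene models were from GENCODE M21 and sequence from the RefSeq copy of GRCm38.p6, coordinates 1-based. Domains, promoters, rows and shares are as defined in the report, with 95% Wilson intervals. The design has no contrast, so no test was made. Named were the 9 members, the genes whose TSS lies at a region in their domains, and of 40 other pathway genes the 2 with most shared regions per role (ties by symbol) and every one without a shared promoter peak; some results that this rule covers are not reported here. The members and lists were chosen with earlier results of these data known. The counting scripts were tested on simulated data and passed 8 of 8 checks. Python 3.11.15, pandas 2.3.3, NumPy 2.4.6 and SciPy 1.17.1 were used.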

Additional observations from a re-analysis of the deposited data

How the results depend on the processing

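No paired analysis was possible because there is 1 group. The promoter count of the members stayed at 8 or 9, that of the genome at 12159 to 15105 and that of the other pathway genes at 28 to 36 under every alternative run, and the count of members above the upper quartile by distal regions at 5 to 7, Gli2 and Ptch1 being the genes that crossed it. Counting 1 library alone gave 213 to 216 regions and 181 to 185 distal regions in place of 77 and 56. The stronger 50% of each list gave 45 shared and 26 distal regions, and domains with 50 kb on each side gave 119 and 86. The share of replicate 2 peaks that overlap replicate 1, 34.3%, became 27.5% with a reciprocal overlap of 50%, 81.4% in the stronger 50% of each list and 43.7% with hotspots. In alternatives added after the data were seen, it became 67.0% with the rows left out, and the members with a row, 4, became 1 with a gap of 500 bp and 2 with at least 20 peaks. The cause of these shifts was not tested beyond fewer or more intervals being counted. The share of member regions with the Gli consensus, 1.30%, became 6.49% with 1 mismatch and 3.90% over whole regions, both inside its wide counting interval. Unknown depth limits all of them: a site closed in replicate 2 and one too shallowly read there cannot be told apart.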
